A study of Danio rerio with 9 samples.

Results

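The SoxB1 genes encode HMG-box transcription factors, and zebrafish carry 6 of them: *sox2*, *sox3*, *sox19a*, *sox19b*, *sox1a* and *sox1b*. They were picked out by gene symbol, as 6 of the 41977 rows in the deposited tables, of which 28260 held a count in at least 1 library. RNA-sequencing was performed on 9 samples of whole TE wild type embryos at shield stage (6.75 hpf), with 10 embryos pooled in each. The 3 uninjected samples were compared with 3 samples of *bmp*-overexpressing embryos, which had received 10 pg of *bmp2b* mRNA, and with 3 samples of *chordin*-overexpressing embryos, which had received 100 pg of *chordin* mRNA. No group was injected with a control mRNA, so a change found in both injected groups cannot be told apart from an effect of injection as such. All groups were dechorionated and frozen when uninjected siblings were at shield stage.

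SoxB1 factors are transcriptional activators that hold cells in an undifferentiated state. In the zebrafish blastula they act with Pou5f3 and Nanog when the zygotic genome is switched on, with maternally supplied Sox19b contributing the first protein. From gastrulation onwards, expression of the family becomes tied to the neural ectoderm, which forms dorsally where BMP ligands are held back by antagonists such as Chordin. The comparisons ask whether each paralog rises or falls when BMP signaling is raised, and whether it does the opposite when the pathway is blocked.

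The libraries held between 8861308 and 22372856 counts, the fewest in *chordin* replicate 2 and the most in uninjected replicate 2. Levels below are counts-per-million values (CPM) scaled with TMM factors over the 9 libraries and are given as mean ± SD, with n = 3 per group. A gene was called changed at a Benjamini-Hochberg adjusted p under 0.05 from limma with voom weights, fitted to the 6 libraries compared and adjusted over every gene tested. Nothing in the labels says that samples of a group came from separate clutches, so the p-values measure only the spread between these samples. In pooled whole embryos, fewer cells of a type and less RNA per cell cannot be told apart.

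Lengths differ between paralogs, so their levels were ranked on the authors' FPKM, which is 1 value per group with no replicate error. In uninjected embryos, *sox3* stood highest at 261.5 FPKM, followed by *sox19a* at 218.39 FPKM, and both lay above 97.9% or more of the 24042 genes with an FPKM above 0. *sox2* stood at 23.93 FPKM, above 85.6% of those genes, and *sox19b* at 7.39 FPKM, above 71.5%. *sox1a* at 0.1 FPKM and *sox1b* at 0.06 FPKM were near the bottom of the range. At shield stage, SoxB1 message was therefore mostly *sox3* and *sox19a*. In *chordin*-overexpressing embryos the top of the order was *sox19a* at 194.17 FPKM and then *sox3* at 187.93 FPKM. In *bmp*-overexpressing embryos *sox3* at 205.91 FPKM again preceded *sox19a* at 151.86 FPKM.

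4 of the 6 members passed the low-count filter in all comparisons. With *bmp2b* mRNA, 2 of the 4 fell, *sox2* and *sox19a*, where 1.43% of all genes tested were called lower. None rose in that limma fit, at an unadjusted p under 0.05, or by limma-trend (0 in each case). At an unadjusted p under 0.05 all 4 were lower, where 2161 of the 16779 genes tested passed in either direction. By limma-trend 2 were lower, where 262 of all genes tested were called lower. With *chordin* mRNA, 2 of the 4 fell, *sox2* and *sox3*, where 0.301% of all genes tested were called lower. Again 0 rose in the limma-voom fit and 0 by limma-trend, with 1 higher at an unadjusted p under 0.05, *sox19b*. At that unadjusted threshold 1565 of the 16590 genes tested passed in either direction. Counted by libraries that do not overlap, 3 of the 4 lay wholly below the uninjected group with *bmp2b* (9.02% of all genes did), and with *chordin* 2 lay wholly below (7.27% of all genes) and 1 wholly above (7.25% of all genes). Between the injected groups, 3 of the 4 were wholly lower with *bmp2b* than with *chordin* (9.84% of all genes) and 1, *sox3*, wholly higher (9.43% of all genes). For *sox2* the injected groups overlapped when CPM came from library totals alone, without TMM factors. *sox2* alone among the 4 was called lower in both injected groups. That fall was known from these data before the 6 genes were chosen.

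**Figure D1:**
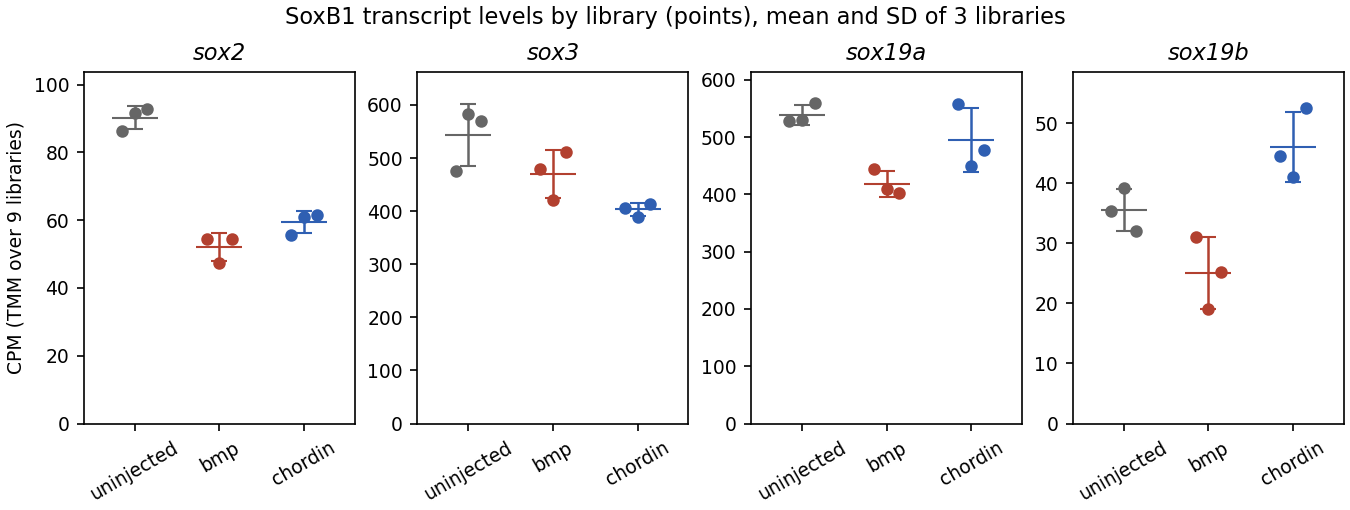
Transcript level (CPM, linear axes from 0) of the 4 SoxB1 genes that passed the filter, in uninjected, *bmp*-overexpressing and *chordin*-overexpressing embryos. Points are the 3 libraries, horizontal lines the mean and bars the SD. *sox2* lies between 86.38 and 92.7 CPM without injection and at or below 61.65 CPM in every injected library. The *sox19b* libraries lie lower with *bmp2b* and higher with *chordin*, but neither shift from uninjected embryos was called.

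*sox2* is the paralog best known as a factor of pluripotent cells and of the neural plate. Its level was 86.38, 91.74 and 92.7 CPM in the uninjected libraries, 54.55, 47.37 and 54.54 CPM in the *bmp* libraries, and 55.62, 60.92 and 61.65 CPM in the *chordin* libraries. Every injected library was below every uninjected one, and the *bmp* libraries all lay below the *chordin* libraries. The second separation depended on the TMM factors. With CPM from library totals alone, *bmp* replicates 1 and 3 (53.71 and 54.64 CPM) lay above *chordin* replicate 1 (53.36 CPM). The mean fell from 90.3 ± 3.41 CPM to 52.2 ± 4.14 CPM with *bmp2b* and to 59.4 ± 3.29 CPM with *chordin*.

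*sox2* was lower in *bmp*-overexpressing than in uninjected embryos by a log2 fold change of -0.79 (SE 0.14, 95% interval -1.08 to -0.51, limma adjusted p = 0.000279), a change of -42.2%. In *chordin*-overexpressing embryos the log2 fold change was -0.60 (SE 0.136, 95% interval -0.88 to -0.32, limma adjusted p = 0.0201), a change of -34.2%. Both comparisons use the same 3 uninjected libraries. Compared directly, *bmp*- and *chordin*-overexpressing embryos differed in *sox2* by a log2 fold change of -0.19 (95% interval -0.49 to 0.10, limma adjusted p = 0.612), so a difference in either direction within that interval was not resolved.

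Of the 15992 genes tested in both comparisons with uninjected embryos, 3 were called lower in both, or 0.0188%. That count rested on single libraries, at 20 without uninjected replicate 1, 5 without uninjected replicate 2, and 1 without uninjected replicate 3 or *chordin* replicate 1 or 2, and was 12 with a replicate block. Beside *sox2* these were *vent*, a homeobox repressor of the ventral side, and *lrwd1*, whose product associates with the origin recognition complex. Both were named after their values had been seen. The fall of *sox2* in both groups was likewise known beforehand, so its place among the 3 is a description and no test. The fall of *sox2* with *bmp2b* passed the threshold under each of the 12 alternatives run, including the removal of any 1 library. Its fall with *chordin* kept its direction under all 12 but missed the threshold when any library other than uninjected replicate 1 was left out, with log2 fold changes of -0.63 to -0.55 over the 6 removals and a highest adjusted p (limma) of 0.17 without *chordin* replicate 1. Without uninjected replicate 1 the adjusted p (limma) was 0.00765.

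*sox3* is expressed broadly in the early ectoderm. The uninjected libraries held 475.3, 583.3 and 570.3 CPM of it, the *bmp* libraries 478.5, 421.5 and 510.5 CPM, and the *chordin* libraries 406.8, 389.0 and 413.6 CPM. The *chordin* libraries were tightly grouped below all others, while the *bmp* libraries overlapped the uninjected ones because uninjected replicate 1 was lower than its fellows. The means were 543.0 ± 58.9, 470.2 ± 45.1 and 403.1 ± 12.7 CPM.

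With *chordin*, *sox3* fell by 25.6%, a log2 fold change of -0.43 (SE 0.0872, 95% interval -0.60 to -0.25, limma adjusted p = 0.00802). With *bmp2b* the log2 fold change was -0.21 (SE 0.0874, 95% interval -0.39 to -0.03), and the limma adjusted p of 0.264 did not pass. Over the removals of 1 library it ranged from -0.30 without uninjected replicate 1 (limma adjusted p = 0.0145, the only removal that passed) to -0.15 without uninjected replicate 2 (limma adjusted p = 0.569) and -0.13 without *bmp* replicate 2 (limma adjusted p = 0.697). Between the injected groups, all *bmp* libraries were above all *chordin* libraries, with a log2 fold change of 0.21 (95% interval 0.05 to 0.37) that was not called (limma adjusted p = 0.135). That difference was called only without *bmp* replicate 2 among the 6 removals, at 0.29 (limma adjusted p = 0.0217). The fall with *chordin* missed the threshold without uninjected replicate 3 (adjusted p = 0.0828 by limma) or without *chordin* replicate 1, 2 or 3 (adjusted p = 0.0573, 0.0904 and 0.0587 by limma), with values of -0.51 to -0.35 over all removals.

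*sox19a* is transcribed from the blastula stage onwards and then in the ectoderm. It measured 527.9, 530.1 and 559.6 CPM in uninjected libraries, 444.2, 409.6 and 402.1 CPM in *bmp* libraries, and 557.0, 448.9 and 477.7 CPM in *chordin* libraries. All *bmp* libraries were below all uninjected libraries. In the *chordin* group, replicate 1 lay within the uninjected range and replicates 2 and 3 below it.

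The mean of *sox19a* went from 539.2 ± 17.7 CPM without injection to 418.6 ± 22.5 CPM with *bmp2b*, a log2 fold change of -0.35 (SE 0.0791, 95% interval -0.52 to -0.19, limma adjusted p = 0.00513), or -21.8%. The call was lost without *bmp* replicate 2 (limma adjusted p = 0.0533) or without *bmp* replicate 3 (limma adjusted p = 0.0717). In *chordin*-overexpressing embryos the mean was 494.6 ± 56.0 CPM, with a log2 fold change of -0.12 (95% interval -0.29 to 0.05, limma adjusted p = 0.698). The direct comparison placed *bmp* below *chordin* with no overlap, at a log2 fold change of -0.24 (95% interval -0.39 to -0.08), which missed the threshold (limma adjusted p = 0.076). It passed without *chordin* replicate 2 (limma adjusted p = 0.0436) and with no low-count filter (limma adjusted p = 0.0442).

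*sox19b*, the maternally supplied paralog, was the only one of the 4 tested members whose injected groups lay on opposite sides of the uninjected group. Its level was 35.35, 39.12 and 32.05 CPM in uninjected libraries, 30.97, 19.06 and 25.24 CPM in *bmp* libraries, and 44.52, 41.03 and 52.45 CPM in *chordin* libraries. The 3 groups did not overlap anywhere, with *bmp* lowest, uninjected between and *chordin* highest.

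Against uninjected embryos (35.5 ± 3.54 CPM), neither shift of *sox19b* passed the adjusted threshold. The log2 fold change was -0.55 with *bmp2b* (25.1 ± 5.96 CPM, SE 0.201, 95% interval -0.95 to -0.14, limma adjusted p = 0.176), and -0.34 without *bmp* replicate 2 (limma adjusted p = 0.617). With *chordin* it was 0.38 (46.0 ± 5.85 CPM, SE 0.170, 95% interval 0.03 to 0.73, limma adjusted p = 0.459). Between the injected groups the difference was called, at a log2 fold change of -0.93 (SE 0.193, 95% interval -1.33 to -0.54, limma adjusted p = 0.00163), a change of -47.6% from *chordin* to *bmp2b*. *sox19b* was the 1 of 4 members called between the injected groups, where 2.85% of all genes were called lower. The call held under all 12 alternatives, with values of -1.11 to -0.73.

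*sox1a* and *sox1b*, which mark neural tissue and lens later in development, were at the limit of detection. *sox1a* had 2, 0 and 7 reads in the uninjected libraries and 0 in each of the 6 injected libraries, where 3 reads, the limit a count of 0 allows, correspond to between 0.173 and 0.339 CPM. *sox1b* had 3, 0 and 1 reads in the uninjected libraries, 11, 16 and 8 in the *bmp* libraries and 6, 6 and 0 in the *chordin* libraries.

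The *bmp* libraries stood at 0.805, 1.07 and 0.637 CPM of *sox1b*, above all uninjected libraries, while *chordin* replicate 2 lay within their range at 0.682 CPM. The *bmp* and uninjected groups differed at an exact two-sided permutation p of 0.1, the smallest that 3 libraries against 3 can give. Both *sox1* genes were below the low-count filter and stayed out of the main fit. In a fit with no filter the log2 fold change of *sox1b* with *bmp2b* was 3.32 (SE 1.18, limma adjusted p = 0.194), and a fitted value on so few reads depends on the offset that voom adds.

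**Figure D2:**
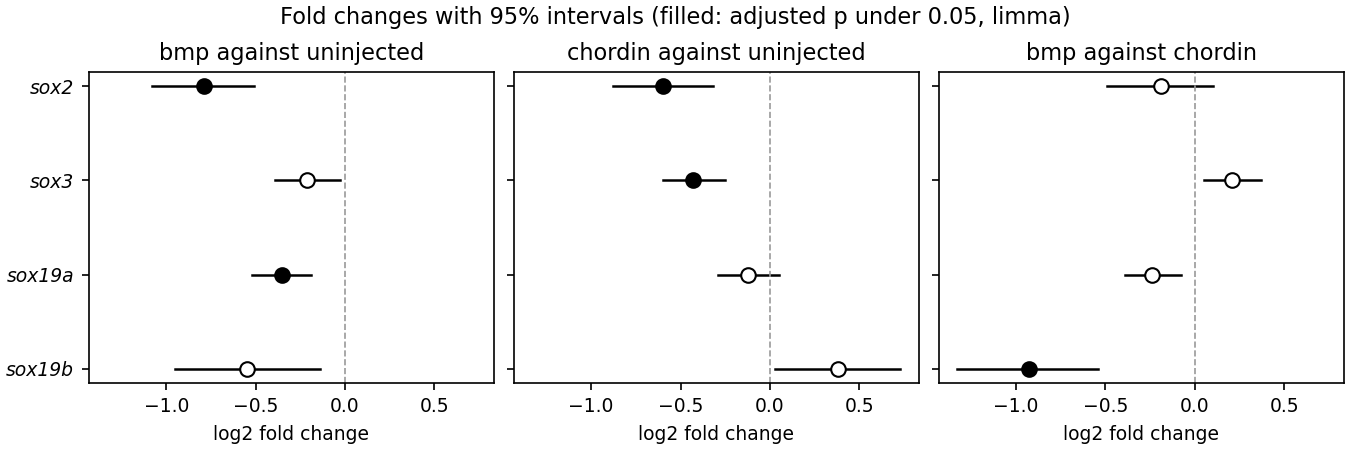
Log2 fold change (horizontal axis) of *sox2*, *sox3*, *sox19a* and *sox19b* in the 3 comparisons, with 95% intervals from limma. Filled circles have an adjusted p under 0.05: *sox2* and *sox19a* with *bmp2b*, *sox2* and *sox3* with *chordin*, and *sox19b* between the injected groups at -0.93.

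Library size cancels in the ratio of one paralog to another within a library. Ratios were taken to *sox19a*, the most abundant member by mean CPM over the 9 libraries, and 9 comparisons were made by exact two-sided permutation tests that cannot go below p = 0.1, so none could pass 0.05 even before adjustment. The log2 ratio of *sox2* to *sox19a* was -2.61, -2.53 and -2.59 in uninjected libraries, -3.02, -3.11 and -2.88 in *bmp* libraries, and -3.32, -2.88 and -2.95 in *chordin* libraries. *sox2* was lower relative to *sox19a* in all 6 injected libraries, with mean differences of -0.43 for *bmp2b* and -0.47 for *chordin* (exact permutation p = 0.1 each). The fall of *sox2* in both groups was known beforehand, so its ratio is a description and no test. *sox19a* itself was called lower with *bmp2b* (log2 fold change -0.35, limma adjusted p = 0.00513) and not with *chordin* (-0.12, limma adjusted p = 0.698). A ratio to it is therefore not the change of the other paralog alone.

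The log2 ratio of *sox3* to *sox19a* separated the injected groups from each other. It was 0.11, 0.04 and 0.34 in *bmp* libraries and -0.45, -0.21 and -0.21 in *chordin* libraries, a mean difference of 0.45 (exact permutation p = 0.1). The uninjected libraries lay between, at -0.15, 0.14 and 0.03, and overlapped the *bmp* libraries. For *sox19b* to *sox19a*, the *chordin* libraries stood highest, at -3.64, -3.45 and -3.19 on the log2 scale, against -3.90, -3.76 and -4.12 without injection and -3.84, -4.42 and -3.99 with *bmp2b*. The mean difference from uninjected embryos was 0.50 with *chordin* (exact permutation p = 0.1) and -0.16 with *bmp2b* (exact permutation p = 0.6). The latter is smaller in size than the log2 fold change of *sox19b* itself (-0.55), since *sox19a* was also lower with *bmp2b*.

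**Figure D3:**
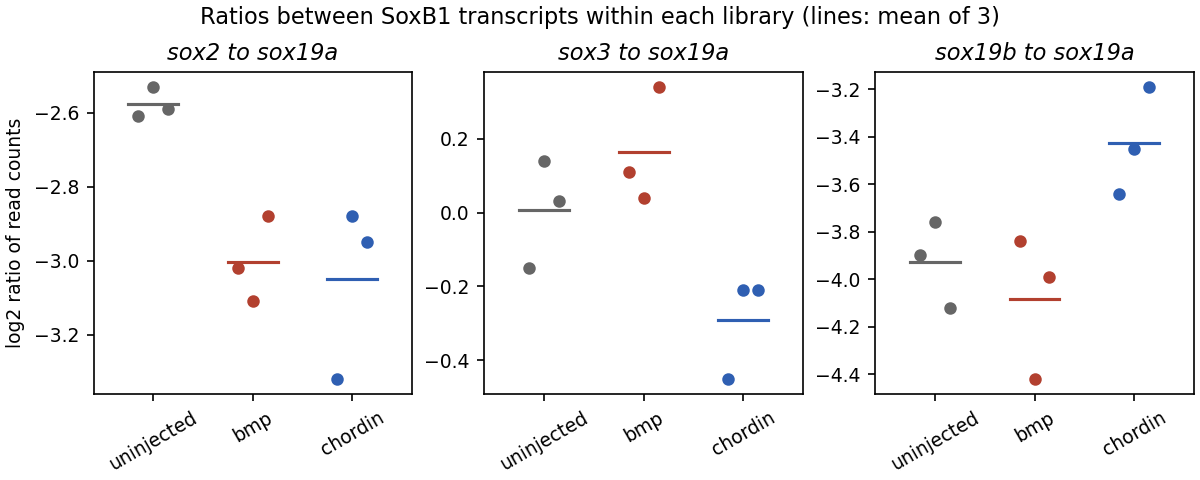
Log2 ratio of the read counts of *sox2*, *sox3* and *sox19b* to those of *sox19a* within each library (points, vertical axes not starting at 0), with lines at the mean of 3. The *sox2* ratio is lower in all 6 injected libraries, the *sox3* ratio is lowest with *chordin*, and the *sox19b* ratio is highest with *chordin*. That *sox2* falls in both injected groups was known beforehand.

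Summed over the 6 members, SoxB1 levels were 1125, 1244 and 1255 CPM in uninjected libraries, 1009, 898.7 and 993.0 CPM with *bmp2b*, and 1064, 940.6 and 1005 CPM with *chordin*. All injected libraries were below all uninjected ones. The makeup of the sum differed between the injected groups: *sox3* supplied 46.9% to 51.4% of SoxB1 reads in *bmp* libraries and 38.2% to 41.4% in *chordin* libraries. *sox2* supplied 7.37% to 7.68% of SoxB1 reads without injection and 5.23% to 6.48% in the injected libraries. Its fall was known beforehand, so this lower share is likewise a description. *sox19b* supplied 4.18% to 5.22% with *chordin* and at most 3.14% elsewhere.

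Genes whose level followed each paralog most closely were found by Pearson correlation of log2(CPM + 1) over the 9 libraries, among 8171 genes averaging at least 10 CPM. The libraries share their groups, so such a correlation describes a common pattern. For *sox2* these were *btr12* (r = 0.949), *tnrc18* (r = 0.947) and *mcm2*, which encodes a subunit of the replicative helicase (r = 0.930). *mcm2* was at 172.3 ± 11.9 CPM without injection, 125.1 ± 10.2 CPM with *bmp2b* and 136.4 ± 8.13 CPM with *chordin*, the same order as *sox2*. For *sox3* they were the RNA-binding protein gene *hdlbpa* (r = 0.949), *znf281a* (r = 0.944) and *nabp1a* (r = 0.940).

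*sox19a* was followed most closely by the Myc family gene *myclb* (r = 0.975), *ywhae1* (r = 0.941) and *ppp1r14ab* (r = 0.923). Like *sox19a*, *myclb* and *ppp1r14ab* varied most among the *chordin* libraries (21.7 ± 12.9 and 42.5 ± 16.2 CPM there). Differences within that group therefore also enter these correlations. *sox19b* was followed by *zgc:73340* (r = 0.985), the ETS factor gene *etv5b* (r = 0.960) and the LIM-homeobox gene *lhx5* (r = 0.935). *lhx5*, a gene of the prospective forebrain, was at 20.04 ± 3.78 CPM without injection, 6.71 ± 2.55 CPM with *bmp2b* and 27.6 ± 2.32 CPM with *chordin*. Among the members themselves, *sox2* and *sox19a* had the highest correlation (r = 0.735) and *sox3* and *sox19b* the lowest (r = -0.205), over the same 9 libraries.

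Of 21 other Sox genes listed for comparison, 20 were matched and 13 were tested in each comparison with uninjected embryos. With *bmp2b*, 1 rose, *sox4b*, a SoxC gene, from 6.76 ± 1.54 to 40.4 ± 12.0 CPM (log2 fold change 2.54, SE 0.309, limma adjusted p = 5.36e-07), where 1.72% of all genes were called higher. None of the 13 fell in that fit or by limma-trend (0 in each). At an unadjusted p under 0.05, 1 was lower, where 2161 of 16779 genes passed in either direction. With *chordin*, 1 rose, the SoxC gene *sox11a*, from 265.8 ± 27.4 to 446.7 ± 21.5 CPM (log2 fold change 0.76, SE 0.0915, limma adjusted p = 4.33e-06), where 0.591% were called higher. It stood at 272.3 ± 17.7 CPM with *bmp2b*. None fell with *chordin* by limma-voom or limma-trend (0 in each). At an unadjusted p under 0.05, 1 was lower, where 1565 of 16590 genes passed in either direction. The other Sox genes had a median log2 fold change of -0.01 with *bmp2b* and -0.03 with *chordin*, against -0.45 and -0.27 for the 4 SoxB1 genes and 0.01 and 0.00 for all genes tested. The SoxB1 medians include *sox2*, whose fall in both groups was known beforehand, so they are a description and no test. *sox3*, *sox19a* and *sox19b* were at -0.21, -0.35 and -0.55 with *bmp2b*. With *chordin* they were at -0.43, -0.12 and 0.38, the last of them upward.

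*pou5f3*, which encodes the Pou partner of SoxB1 factors, was at 1467 ± 106.7, 1441 ± 11.7 and 1486 ± 135.5 CPM in uninjected, *bmp*- and *chordin*-overexpressing embryos, with overlapping groups. *nanog*, the homeobox partner, was at 203.5 ± 20.6, 173.4 ± 10.0 and 246.2 ± 26.7 CPM, and differed between the injected groups (log2 fold change -0.51, limma adjusted p = 0.000686). In the list of Pou partners and pluripotency factors, 3 of 12 tested genes fell with *bmp2b* (1.43% of all genes) and 1 rose (1.72%). The largest fall was that of *mycn*, a Myc family gene, from 37.3 ± 2.97 to 9.47 ± 1.71 CPM (log2 fold change -1.96, limma adjusted p = 1.98e-06), and *lin28a*, a translational regulator of stem cells, rose (0.53, limma adjusted p = 0.000521). With *chordin*, 1 of 10 tested genes rose, *mycn*, to 62.3 ± 9.10 CPM (log2 fold change 0.73, limma adjusted p = 0.0166), a call lost without *chordin* replicate 1 or 2 or uninjected replicate 2 (limma adjusted p = 0.184, 0.0632 and 0.0818). 0 fell with *chordin* by limma-voom, by limma-trend or at an unadjusted p under 0.05. Among all genes tested, 0.591% were called higher and 0.301% lower with *chordin*.

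The median of the neural plate list moved in opposite directions in the injected groups. With *bmp2b*, 8 of 16 tested genes fell (1.43% of all genes) and 1 rose (1.72%), with a median log2 fold change of -1.22. With *chordin*, 8 of 17 rose (0.591% of all genes) and 0 fell by limma-voom, by limma-trend or at an unadjusted p under 0.05. The median there was 1.45. This list, like the others, was chosen with earlier results of these data known. Its counts and medians are therefore a description and no test. Not every gene followed the median. *cyp26a1* was called higher in both groups (log2 fold changes 0.94 and 0.73, limma adjusted p = 8.31e-06 and 0.00217). *zic2b* fell with *bmp2b* (-0.77, limma adjusted p = 5.97e-08) and was not called with *chordin* (-0.03, limma adjusted p = 0.95). *otx1a*, a homeobox gene of the forebrain and midbrain, was at 51.2 ± 6.99 CPM in uninjected embryos, 15.9 ± 3.36 CPM with *bmp2b* (log2 fold change -1.66, limma adjusted p = 2.04e-06) and 147.9 ± 7.02 CPM with *chordin* (1.56, limma adjusted p = 7.5e-09). *otx2* had no read in the 3 *bmp* libraries, where 3 reads correspond to at most 0.239 CPM, and stood at 4.32 ± 2.42 CPM without injection and 11.5 ± 1.79 CPM with *chordin*.

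Set beside these genes, *sox2* and *sox3* fell with *chordin* while 8 of 17 tested genes of the neural plate list rose and the rest were not called. *sox19b* had the same order of group means as *otx1a*, although neither of its differences from uninjected embryos was called. That order was also seen outside the neural plate list, as in the endoderm gene *sox32* (101.7 CPM with *bmp2b*, 135.2 uninjected, 170.4 with *chordin*). The summed level of the neural plate list was 916.6 to 1048 CPM without injection. It was 606.0 to 683.4 CPM with *bmp2b* and 1394 to 1473 CPM with *chordin*, so the groups did not overlap. The non-neural ectoderm list moved the other way, at 841.4 to 972.7, 1843 to 2002 and 531.7 to 573.5 CPM. In it, 9 of 13 tested genes rose with *bmp2b* and 0 fell (limma-voom, limma-trend and unadjusted p under 0.05). With *chordin*, 5 of 14 fell by limma-voom, 6 by limma-trend and 6 at an unadjusted p under 0.05, and 0 rose by any of the 3 counts. Among all genes tested, 1.72% were called higher with *bmp2b* and 0.301% lower with *chordin*. By limma-trend, 290 of 16779 genes were called higher with *bmp2b* and 56 of 16590 lower with *chordin*. At an unadjusted p under 0.05, 2161 and 1565 passed in either direction. The authors picked *gata2a*, *tfap2c*, *foxi1* and *klf2b* as BMP targets from these same libraries, by a rise with *bmp2b* and a fall with *chordin*. Their part in these counts was therefore fixed beforehand, so the counts are a description and no test. The non-neural list included *foxi1*, a forkhead gene of the ventral ectoderm, at 50.9 ± 3.77, 163.8 ± 7.83 and 4.36 ± 1.78 CPM. The part of these shifts in the levels of SoxB1 genes was not tested.

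**Figure D4:**
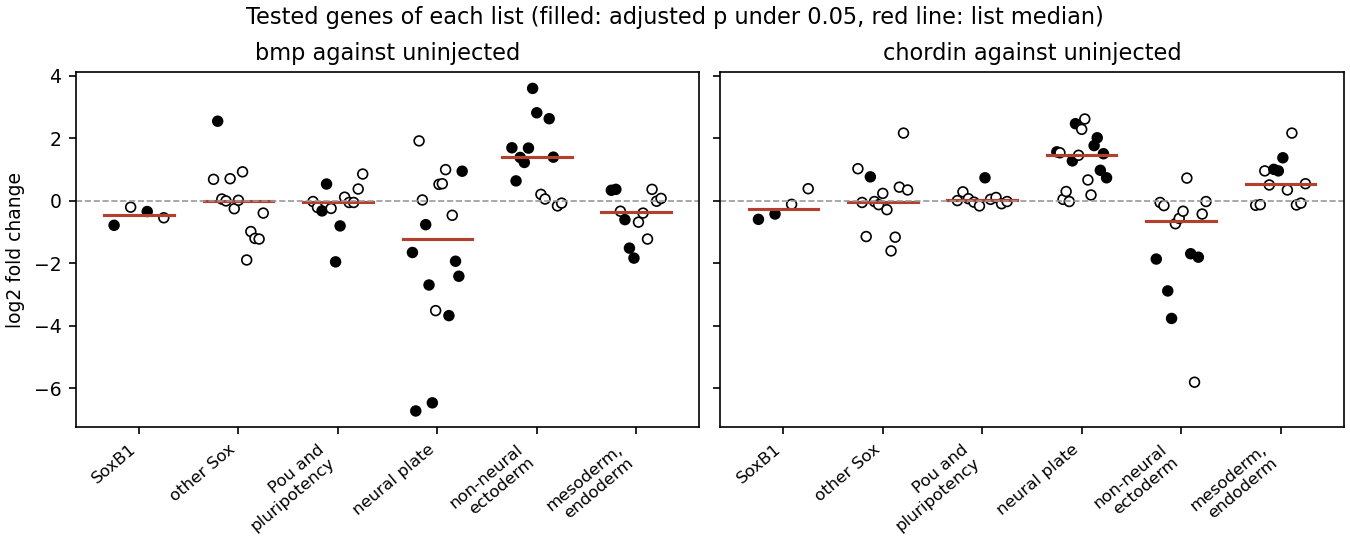
Log2 fold change (vertical axis) of every tested gene in 6 of the lists, for *bmp2b* and for *chordin* against uninjected embryos, with red lines at the list medians and filled circles for an adjusted p under 0.05. The SoxB1 medians, which include *sox2*, are -0.45 and -0.27, whereas the neural plate medians are -1.22 and 1.45. All lists were chosen with earlier results of these data known. The 2 lowest neural plate values with *bmp2b* are fits for *otx2* and *her3*, which had almost no reads there.

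Markers of the cell types that lie outside the ectoderm were also compared. Of 12 mesoderm and endoderm genes, 2 rose (1.72% of all genes) and 3 fell (1.43%) with *bmp2b*. The falls were *gsc*, *noto* and *msgn1* (log2 fold changes -1.84, -1.52 and -0.61), and the larger rise was *tbx16* (0.36). The *msgn1* call (limma adjusted p = 0.0465) passed in 7 of 12 alternatives. With *chordin*, 3 of the 12 rose (0.591% of all genes): *gsc*, *noto* and *hhex*. Their summed level was 1841 to 1893 CPM in uninjected, 1997 to 2147 CPM in *bmp* and 1845 to 1972 CPM in *chordin* libraries. Of 10 genes of the enveloping layer, yolk syncytial layer and germ cells, 1 fell with *bmp2b* (1.43% of all genes). It was the keratin gene *krt5* (1611 ± 333.9 to 1128 ± 25.2 CPM, log2 fold change -0.44, limma adjusted p = 0.0031). With *chordin*, 0 were called either way by limma-voom, 1 was higher by limma-trend and 2 were higher at an unadjusted p under 0.05. Of the 16590 genes tested, 95 were higher by limma-trend and 1565 passed the unadjusted threshold in either direction. The summed level of the latter list ranged from 4531 to 6803 CPM in uninjected, 4860 to 5159 CPM in *bmp* and 5472 to 6254 CPM in *chordin* libraries, and its part in the SoxB1 changes was not tested. Of 10 upstream inducers and antagonists tested with *bmp2b*, 2 rose (1.72% of all genes) and 2 fell (1.43%). The falls were *chd* and *nog1* (log2 fold changes -2.83 and -2.03). *nog2* rose, from 0.062 ± 0.074 to 10.7 ± 1.65 CPM (log2 fold change 7.2, SE 1.59, limma adjusted p = 0.00445). It had 3 reads in all over the uninjected libraries, so the size of its fold change depends on the offset that voom adds. The *nog1* call was lost without *bmp* replicate 2 (limma adjusted p = 0.146). With *chordin*, 3 of 9 rose (0.591%), including *chd*, whose reads cannot be told from the injected mRNA. *fgf8a*, an FGF ligand, was higher in both injected groups, at 42.3 ± 9.04, 65.9 ± 1.69 and 69.9 ± 5.45 CPM. Its log2 fold changes were 0.71 and 0.77 (limma adjusted p = 0.00658 and 0.013). Both calls were lost without uninjected replicate 2 (limma adjusted p = 0.157 and 0.18), the second also without *chordin* replicate 2 (limma adjusted p = 0.0904).

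In the files' coordinates (GRCz10), the 6 members lie on 6 different chromosomes. *sox19a* is on chromosome 5 from 23695379 to 23697644 and *sox19b* on chromosome 7 from 26223391 to 26226754. *sox1b* lies on chromosome 1 from 45503100 to 45504874. For the other members the files give a locus joined with a neighbouring gene. *sox2* is at chromosome 22 from 37412544 to 37591938 with *sox2ot*, *sox3* at chromosome 14 from 32324759 to 32414984 with *si:ch211-143l19.3*, and *sox1a* at chromosome 9 from 21908153 to 21919698 with *LOC108191313*.

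Reads were counted without strand, so reads of overlapping neighbours cannot be separated by orientation. The neighbours had few reads of their own: *sox2ot*, the transcript that overlaps *sox2*, had 217 reads over the 9 libraries against 9185 for *sox2*. *si:ch211-143l19.3* had 175 reads against 63729 for *sox3*, and *LOC108191313* had 0 against 9 for *sox1a*.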

How the data were processed

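Poly(A) RNA of 9 samples was sequenced by the authors without strand information. Per the labels and methods, reads were demultiplexed with bcl2fastq 2.17.1.14 and aligned to GRCz10 with STAR 2.4.1b. HTSeq and Cufflinks appear in the submitters' notes without a stated role. The authors deposited a table for each pair of groups (3 in all), with raw read counts per gene in each library and FPKM values per group from Cuffdiff 2.1.1, normalized separately in each table. The log2 fold changes, p-values and calls from Cuffdiff, DESeq (version 1.12.0) and edgeR (version 3.2.3) in these tables were not used.

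Counts carried comma separators, which were removed, and columns shared between tables held identical counts (0 cells differed). Depth was 8861308 to 22372856 counts per library, and floors of 3 counts cover counting error only. Replicates differed by a chi-square per degree of freedom of 12.1 to 35.1, so none was a copy. Counts were fitted with limma 3.58.1 (voom) in R 4.3.3 with data.table (version 1.17.8), on the 2 groups compared. TMM factors trimmed 30% of fold changes and 5% of levels. Genes were tested if 3 or more libraries reached the CPM that 10 counts make at median depth and the total was 15 counts or more. p-values were adjusted by the Benjamini-Hochberg method. The fit was tested on simulated data. Ratios used 0.5 added counts and scipy 1.17.1, tables pandas 2.3.3 in Python 3.11.15, and plots matplotlib 3.10.9.

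Alternatives were no filter, RLE factors, library totals alone, all 3 groups in one fit, a replicate block, limma-trend with a prior of 2 counts, and the removal of each library. The members and lists were chosen with earlier results of these data known. Named beside the members were the 3 genes most like each tested member, up to 4 called genes of largest fold change per list and comparison, and genes sharing a member's locus. *pou5f3* was named as the known partner, and *cyp26a1* and *zic2b* as exceptions to the median of their list. The symbol *otx2* was matched after the tables were read. *sox30* and *otx2a* were not matched.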

Additional observations from a re-analysis of the deposited data

How the results depend on the processing

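No called difference of a SoxB1 gene changed direction under the alternatives. The count of genes called with *chordin* was 148 and became 307 with a replicate block and 88 to 312 over the removals of 1 library, the highest without uninjected replicate 1. The count called lower in both injected groups was 3, then 12 with the block and 1 to 20 over the removals, the highest again without uninjected replicate 1. With the block, the *sox19a* difference between the injected groups was -0.24 (limma adjusted p = 0.0362), and with no low-count filter it was -0.24 (limma adjusted p = 0.0442), both past the threshold. Whether the replicate numbers pair the samples was not settled. Deviations of same-numbered libraries correlated between -0.0103 and 0.0837, and those of different-numbered libraries between -0.101 and 0.127. For *bmp* and uninjected libraries, the same-numbered values of 0.0128 to 0.0406 lay above the highest different-numbered value, 0.0045. The block changed no other call of a SoxB1 gene.

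Over the removals, log2 fold changes with *bmp2b* were -0.30 to -0.13 for *sox3*, -0.41 to -0.32 for *sox19a* and -0.72 to -0.34 for *sox19b*. With *chordin* they were -0.63 to -0.55 for *sox2* and -0.51 to -0.35 for *sox3*. Between the injected groups they were 0.15 to 0.29 for *sox3* and -0.29 to -0.16 for *sox19a*. Library totals alone gave 259 genes higher and 319 lower with *bmp2b*, against 288 and 240, which turned the balance of calls, as did leaving out uninjected replicate 2 (211 higher and 258 lower). Precision is set by 3 libraries per group, and for *sox1a* and *sox1b* by depth.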
